A study of Homo sapiens with 6 samples.

Results

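The writers and erasers of H3K27 marks described here are 8 genes, EZH2, EZH1, SUZ12, EED, JARID2, KDM6B, CREBBP and EP300, with the chromatin peaks that overlapped each gene's span on hg19 or the 5 kb on either side of it. The windows held 13 of the 38255 H3K27ac peaks listed in H69 and 20 of the 51091 listed in H69M. They held 0 of the 21638 H3K27me3 peaks of H69 and 0 of the 37853 of H69M. How often windows of other genes hold no H3K27me3 peak was not analysed here. All 8 genes had an H3K27ac peak scoring 1000 or more within 2500 bp of the gene start in both lines. The share of other gene starts with such a peak was not computed. Of the 13 H69 peaks 12 had an H69M counterpart (77.5% of all H69 peaks did), and of the 20 H69M peaks 12 had one in H69 (51.6% of all H69M peaks did). The other 8 were short, low-scoring peaks in JARID2, KDM6B and CREBBP.

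H69 (NCI-H69) is an established small cell lung cancer (SCLC) line, and H69M was derived from it by a published procedure. Chromatin of each line was immunoprecipitated once for H3K27ac and once for H3K27me3 and sequenced, and 1 input library per line was not analysed here. No treatment separates the groups other than the derivation of H69M, and each of the 4 antibody groups has 1 library, so no difference between the lines has a replicate check and none was tested. No RNA or protein level of the 8 genes was analysed here, and copy number was not measured, so a difference in peaks cannot be told apart from a difference in depth, enrichment or copies of a locus.

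Lysine 27 of histone H3 carries either acetyl or methyl groups, which exclude each other on the same residue. Polycomb repressive complex 2 (PRC2) writes H3K27me3: EZH2 or its paralog EZH1 is the methyltransferase, SUZ12 and EED complete the core, EED reads the product and stimulates the enzyme, and JARID2 is an accessory subunit that helps to place it. KDM6B (JMJD3) removes methyl groups from H3K27, and the paralogs CREBBP (CBP) and EP300 (p300) are the acetyltransferases that write H3K27ac. EZH2 is an E2F target that dividing cells express highly, and inhibitors of EZH2 are studied in SCLC.

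RefSeq starts on GRCh38.p14 were matched for 8 of 8 genes and gave 12 start windows, since EZH2, JARID2, KDM6B and CREBBP have 2 listed starts each. A window runs from 250 bases before the start through the first 20 bases from it. EZH2 is shown as the catalytic subunit, EED for the contrast between its own peak and its surroundings, and both windows of JARID2 and KDM6B because the H3K27ac peaks of these genes come in separate pieces. The sequences read 5′ to 3′ along the gene. Capitals mark the letters GGGCGG (the GC box), CCAAT (the box named after these letters), TATAAA (the core of the TATA box), TGACGTCA (the cyclic AMP response element) and TTTGGCGC (an E2F site) on either strand, and neighbouring GC boxes can overlap. The windows lie at chr7:148884272-148884541 on the minus strand (EZH2, first start), chr11:86244503-86244772 (EED), chr6:15245819-15246088 and chr6:15248605-15248874 (JARID2, first and second start), and chr17:7833967-7834236 and chr17:7839667-7839936 (KDM6B, first and second start).
EZH2, first start: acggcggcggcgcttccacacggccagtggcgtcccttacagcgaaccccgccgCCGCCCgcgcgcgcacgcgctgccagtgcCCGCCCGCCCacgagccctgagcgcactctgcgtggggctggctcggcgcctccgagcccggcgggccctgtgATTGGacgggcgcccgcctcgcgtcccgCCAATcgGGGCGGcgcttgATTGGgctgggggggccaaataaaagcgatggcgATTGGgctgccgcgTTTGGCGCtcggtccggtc
EED: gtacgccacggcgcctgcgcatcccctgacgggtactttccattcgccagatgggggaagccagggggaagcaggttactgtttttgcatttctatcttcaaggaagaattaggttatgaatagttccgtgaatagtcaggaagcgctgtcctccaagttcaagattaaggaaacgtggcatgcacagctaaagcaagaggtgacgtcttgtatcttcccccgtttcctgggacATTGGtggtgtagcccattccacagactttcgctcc
JARID2, first start: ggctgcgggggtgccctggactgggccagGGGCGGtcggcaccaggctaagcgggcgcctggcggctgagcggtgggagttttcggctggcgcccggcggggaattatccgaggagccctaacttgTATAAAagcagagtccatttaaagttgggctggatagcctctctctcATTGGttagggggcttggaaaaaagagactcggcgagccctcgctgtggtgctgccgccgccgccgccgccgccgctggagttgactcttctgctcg
JARID2, second start: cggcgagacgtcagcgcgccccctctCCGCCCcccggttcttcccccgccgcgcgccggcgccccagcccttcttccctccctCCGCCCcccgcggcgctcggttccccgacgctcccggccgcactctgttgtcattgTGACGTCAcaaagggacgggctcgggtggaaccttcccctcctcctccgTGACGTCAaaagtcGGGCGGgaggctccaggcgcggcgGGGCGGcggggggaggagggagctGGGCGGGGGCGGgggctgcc
KDM6B, first start: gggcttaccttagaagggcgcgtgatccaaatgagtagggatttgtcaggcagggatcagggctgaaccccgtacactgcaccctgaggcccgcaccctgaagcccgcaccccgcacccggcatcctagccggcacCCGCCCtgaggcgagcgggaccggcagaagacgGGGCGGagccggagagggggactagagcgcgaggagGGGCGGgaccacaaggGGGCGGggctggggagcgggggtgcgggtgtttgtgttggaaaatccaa
KDM6B, second start: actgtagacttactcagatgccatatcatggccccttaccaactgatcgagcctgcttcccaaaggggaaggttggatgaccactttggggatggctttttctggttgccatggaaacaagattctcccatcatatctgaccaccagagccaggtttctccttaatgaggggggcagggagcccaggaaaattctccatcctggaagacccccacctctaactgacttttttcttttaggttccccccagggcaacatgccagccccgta

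The EZH2 window held 42 CpG and had a GC content of 75.2%, with 4 CCAAT boxes, 4 GC boxes and 1 E2F match. Those E2F letters were present in 0.598% of 35116 RefSeq windows of the same length. The second JARID2 start had 2 cyclic AMP response elements, which 1.83% of all windows hold at least once. The first JARID2 start had the only TATA box among the 12 windows (11% of all windows). GC boxes were present in 9 of the 12 windows and in 43.7% of all windows, and CCAAT boxes in 4 of 12 and in 33.1%. The windows of these genes ranged from 51.1 to 83.0% GC, against a median of 58.1% over all windows, and from 2 to 48 CpG, against a median of 12. The lowest CpG number belonged to the second KDM6B start. A match is only a match of letters and was not tested as a site.

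H3K27me3, the product of PRC2, was not listed at any of the 8 genes described here. Other genes that write or remove it were not placed. The nearest H3K27me3 peak to a gene span was 26.9 kb away in H69 (upstream of SUZ12) and 37.2 kb away in H69M (upstream of EZH1). At EZH2 the nearest peak lay 87.5 kb upstream in H69 (score 52.03, width 160 bp) and 162 kb downstream in H69M (score 52.26, width 128 bp). EZH1 had the closest pair, 38.6 kb upstream in H69 (score 79.78) and 37.2 kb upstream in H69M (score 150.23). The gap was 435 kb in H69 and 447 kb in H69M at EED, 332 and 299 kb at JARID2, 126 and 148 kb at KDM6B, and 226 kb in both lines at CREBBP. EP300 lay farthest from a listed peak, at 826 kb in H69 (score 55.77) and 737 kb in H69M (score 59.49). Scores in the lists start at about 50, and the SUZ12 peak 26.9 kb away in H69 scored 50.56. Such distances can therefore rest on weak peaks.

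From the H3K27ac peaks at the 8 loci to the nearest H3K27me3 peak of the same line the median distance was 144 kb in H69 and 271 kb in H69M, against 210 and 256 kb over all H3K27ac peaks. More than 100 kb away were 69.2% of the peaks at the loci in H69 and 90.0% in H69M, against 67.3% and 71.0% of all H3K27ac peaks. Peaks of 1 gene share their surroundings, so these are few independent sites. Of all H3K27ac peaks 0.805% in H69 and 1.56% in H69M overlapped an H3K27me3 peak. At the loci it was 0 of 13 and 0 of 20 peaks. This follows from the lack of H3K27me3 peaks in and near the windows and is no separate result. Deposited H3K27me3 peaks were short (median widths of 185 bp for H69 and 156 bp for H69M), and mark levels too low for the peak caller are not listed.

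EZH2 spans chromosome 7 from 148504464 to 148581441 on the minus strand and had 1 H3K27ac peak in each line. The H69 peak was 2898 bp wide and reached from 1679 bp before the gene start to 1218 bp after it. The H69M peak was 2997 bp wide and reached from 1589 bp before to 1407 bp after. Both had the authors' score of 3100, a value at which many peaks pile up and cannot be ranked among each other, although a few peaks score above it. No other H3K27ac peak was listed in the 87.0 kb window of EZH2 in either line.

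SUZ12, on chromosome 17 from 30264044 to 30328057, likewise had 1 peak per line over its start, 2148 bp wide in H69 and 2331 bp in H69M, both with a score of 3100. At EED, on chromosome 11 from 85955806 to 85989785, the single peak was 1856 bp wide in H69 and 1958 bp in H69M. Its 5′ edge lay 559 bp before the start in H69 and 551 bp before it in H69M, a difference of a few bases. The EED peak had a score of 1379.55 in H69 and was at 3100 in H69M, but scores of the 2 lists are not on a shared scale when depth differs. EED also had the least GC-rich window of the PRC2 genes (51.1%).

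EZH1, on chromosome 17 from 40852293 to 40897071 on the minus strand, was the only gene with a shorter H3K27ac covered length in H69M. The peak over its start was 1458 bp wide in H69 (score 1564.85) and 1625 bp in H69M (score 2526.78). H69 had a second peak of 1080 bp from 5189 to 4110 bp before the start, with a score of 219.67, and the nearest H69M peak lay 3614 bp away from it. It was the only H69 peak among the 13 without an H69M counterpart. With 10 kb on either side a further H69 peak of 680 bp (score 91.86) from 6031 to 5352 bp before the start appeared, and it had no H69M counterpart either. The covered length of the EZH1 window was 2349 bp in H69 and 1625 bp in H69M, a ratio of 0.692, and within the span alone the ratio was 1.11. The lower value of EZH1 in H69M therefore rests on the upstream peak.

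JARID2 is the longest of the genes (chromosome 6 from 15246527 to 15522273, 276 kb) and had H3K27ac in several places. A pair of peaks lay over and shortly after the start in each line. The first, over the start, was 1929 bp wide in H69 and 2097 bp in H69M, both with a score of 3100. The second ran from 1229 to 3040 bp after the start in H69 (score 1045.60) and from 1340 to 3301 bp in H69M (score 1592.49). RefSeq lists 2 JARID2 starts 2786 bp apart on GRCh38, whose sequences are printed above, and the gap between the peaks fell between 245 and 1229 bp after the hg19 start in H69. A further peak, far inside the gene, lay from 153525 to 154828 bp after the start in H69 (score 285.99) and from 153406 to 154902 bp in H69M (score 378.86).

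H69M had 4 further JARID2 peaks with no H69 counterpart. They lay 7574, 14960, 38099 and 158964 bp after the start, were 578, 552, 625 and 553 bp wide and scored 90.83, 85.04, 94.31 and 52.72. With them the covered length of JARID2 was 5045 bp in H69 and 7864 bp in H69M, a ratio of 1.56. With the peaks under a score of 100 left out of both lists it was 1.10.

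The window of KDM6B had the densest H3K27ac coverage of the 8. KDM6B spans only 14.9 kb (chromosome 17 from 7743222 to 7758118), and its window of 24.9 kb is the shortest. H3K27ac covered 35.6% of this window in H69 and 46.5% in H69M. These values include peaks in the flanks, before the start and past the gene's end, which lie outside the span. The other 7 windows were covered over 1.43 to 4.29% in H69 and 2.09 to 4.45% in H69M. The first KDM6B peak ran from 6238 to 2998 bp before the start in H69 (3241 bp, score 3065.90) and from 6133 to 2057 bp before it in H69M (4077 bp, score 3100). The next ran from 1352 to 5636 bp after the start in H69 (4285 bp, score 3159.56) and from 875 to 5998 bp in H69M (5124 bp, score 3100).

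No peak covered the hg19 start of KDM6B itself in either line, whereas a peak covered the start of the other 7 genes in both. RefSeq lists 2 KDM6B starts 5700 bp apart on GRCh38, and its span of the gene is 5683 bp longer than the hg19 span used here, so the start used here is probably the downstream one. The contrast with the other genes therefore concerns that start and not the gene as a whole. The second start has the sequence with 2 CpG and no GC box printed above, and the first has 21 CpG and 4 GC boxes. The upstream H3K27ac peak, from 6238 to 2998 bp before the start used here in H69 and from 6133 to 2057 bp in H69M, includes the position 5700 bp before it. The first start would lie there if the distance is the same on hg19. This was not checked, because no hg19 annotation was used. Within 1000 bp of the hg19 start, 7 of 8 genes had a peak in H69 and 8 of 8 in H69M. The difference was at KDM6B, with the longer second peak and a peak of 503 bp with a score of 56.84, from 1233 to 731 bp before the start. Within 500 bp the count was 7 of 8 in both lines, and within 2500 bp it was 8 of 8 in both. Shares over the starts of other genes were not computed for any of these counts, so they are not shown to be particular to the 8 genes.

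The last KDM6B peak lay past the gene's end, from 16468 to 19039 bp after the start in H69 (2572 bp, score 1385.57) and from 16501 to 18662 bp in H69M (2162 bp, score 1992.10). It was the only paired peak at the 8 loci that was narrower in H69M. RefSeq lists TMEM88, NAA38 and CYB5D1 next to KDM6B and DNAH2 on its other side, and to which of these genes the peak belongs was not examined. H69M had 1 more peak inside the gene, 11294 bp after the start (851 bp, score 104.72). The covered length of KDM6B was 8860 bp in H69 and 11584 bp in H69M, a ratio of 1.31.

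The acetyltransferase paralogs CREBBP and EP300 had peaks of like extent over their starts. At CREBBP (chromosome 16 from 3775056 to 3930121, minus strand) the peak was 2356 bp wide in H69 and 2380 bp in H69M, a change of 24 bp. At EP300 (chromosome 22 from 41488614 to 41576081) it was 2442 bp wide in H69 and 2863 bp in H69M, and its 5′ edge lay 1682 bp before the start in H69 and 2039 bp before it in H69M. All 4 of these peaks had a score of 3100. EP300 had no other peak. CREBBP had 2 further peaks in H69M only, 402 bp (score 51.25) and 665 bp wide (score 59.81), next to each other from 117497 to 118693 bp after the start. They brought its covered length from 2356 bp in H69 to 3447 bp in H69M, a ratio of 1.46, and without peaks scoring under 100 the ratio was 1.01.

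**Figure D1:**
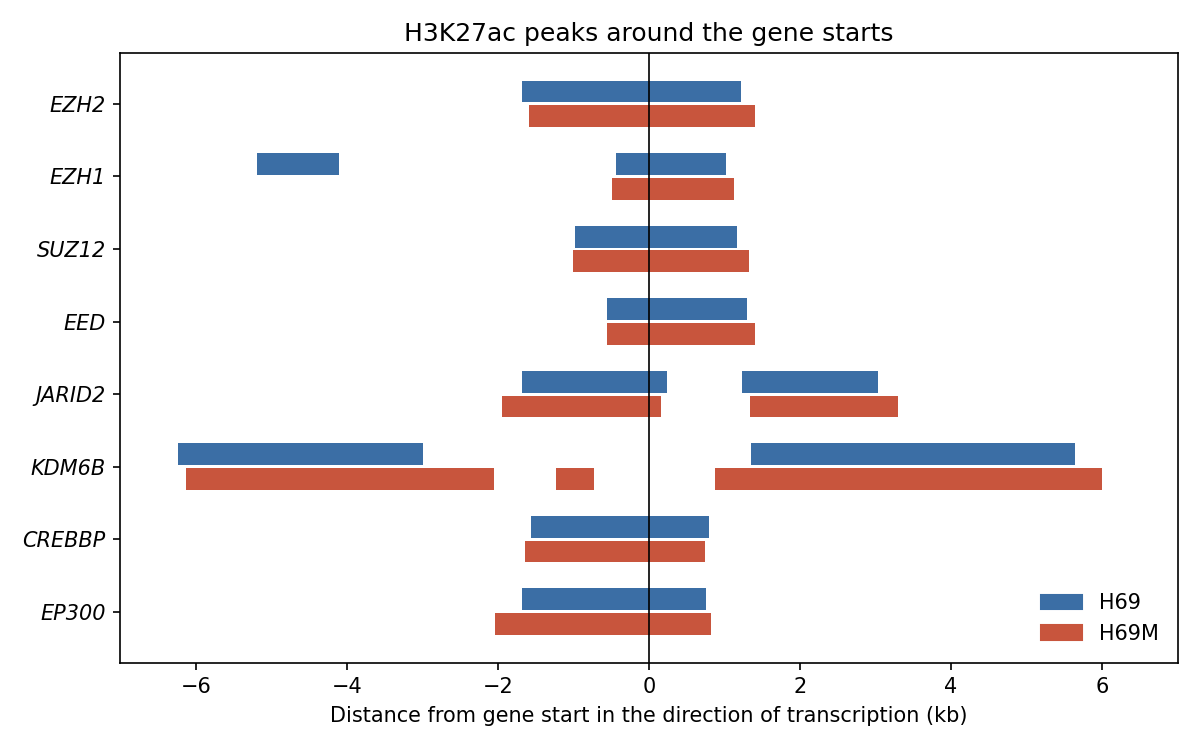
H3K27ac peaks within 7 kb of each gene start, with distance in kb along the direction of transcription and 1 row per line (blue H69, red H69M). A peak lies over the hg19 start used here of every gene except KDM6B in both lines, the EZH1 peak from 5189 to 4110 bp before the start is in H69 alone, and JARID2 and KDM6B show separate peaks on either side of a gap.

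Summed over the 8 loci the H3K27ac covered length came to 28.0 kb for H69 and 34.7 kb for H69M, a ratio of 1.24, against 1.59 over all peaks. The ratio was above 1 at 7 genes and below 1 at EZH1, with a median of 1.13. In order it was 1.56 at JARID2, 1.46 at CREBBP, 1.31 at KDM6B, 1.17 at EP300, 1.09 at SUZ12, 1.05 at EED, 1.03 at EZH2 and 0.692 at EZH1. None of the 8 exceeded the ratio over all peaks with the 5 kb flank, but within the span alone CREBBP (2.26) and JARID2 (1.76) did. For their whole chromosomes the ratios were 1.56 for chromosome 7 (EZH2), 1.55 for 17 (EZH1, SUZ12 and KDM6B), 1.49 for 11 (EED), 1.61 for 6 (JARID2), 1.39 for 16 (CREBBP) and 1.26 for 22 (EP300). Only CREBBP had a higher ratio than its chromosome with the 5 kb flank, and within the span alone JARID2 did as well. How many windows of other genes stay below these ratios was not computed, so this is not shown to be particular to the 8 genes. Peaks at the loci also scored higher than the whole lists. Median scores were 3065.9 against 212.6 in H69 and 1792.3 against 237.9 in H69M. The ratios of 1.24 and 1.59 therefore compare unlike sets of peaks.

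In H69, 12 of the 13 peaks (92.3%, exact Clopper-Pearson 95% interval 64.0 to 99.8, counting error only) overlapped an H69M peak, against 77.5% of all H69 peaks. In H69M, 12 of the 20 (60.0%, 36.1 to 80.9) overlapped an H69 peak, against 51.6% of all H69M peaks. The intervals treat the peaks as independent and are no test against the share over all peaks. Of the 20 H69M peaks 7 were at JARID2 and 5 at KDM6B, and the same 12 pairs enter both shares. Each line had 11 peaks with a score of 1000 or more at the loci, and all 11 were shared in each, near the 99.4% of all such peaks in H69 and the 93.5% in H69M. A score of 3100 or above was listed for 6 of 13 peaks for H69 (5 at 3100 and the KDM6B peak at 3159.56) and for 8 of 20 for H69M (all at 3100), against 8.93% and 11.8% of all peaks in the lists. How often the starts of other genes reach this score was not analysed here.

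The 8 H69M peaks without an H69 counterpart scored from 51.25 to 104.72 and were 402 to 851 bp wide, with 4.73 kb in all. Of these, 7 scored under 100, as did 45.6% of the 24739 such peaks of the whole list, whose median score was 109.39 and median width 808 bp. When the peaks of both lines were merged into regions, 8 of 21 regions at the loci were in H69M alone or at least 1.5-fold longer there, against 53.1% of 58888 regions in all. In the opposite direction it was 1 of 21 regions, the one before EZH1, against 16.3%.

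The 12 peaks of H69 that matched a single H69M peak one to one differed little in width. The ratio of H69M to H69 ran from 0.841, at the peak past the end of KDM6B, to 1.26, at the peak before its start, with a median of 1.09. The median was 1.20 over all 21822 such pairs and 1.12 over the 7748 in which the H69 peak scored 1000 or more. None of the 12 was 1.5-fold wider in H69M, against 25.4% of all pairs. In 11 of the 12 the H69 peak scored 1000 or more, and the share among all pairs of that strength was not computed. H69M peaks were the wider ones in 11 of 12 pairs and in 77.6% of all pairs. The smallest changes were those of CREBBP (ratio 1.01), EZH2 (1.03) and EED (1.05), all over the gene start.

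**Figure D2:**
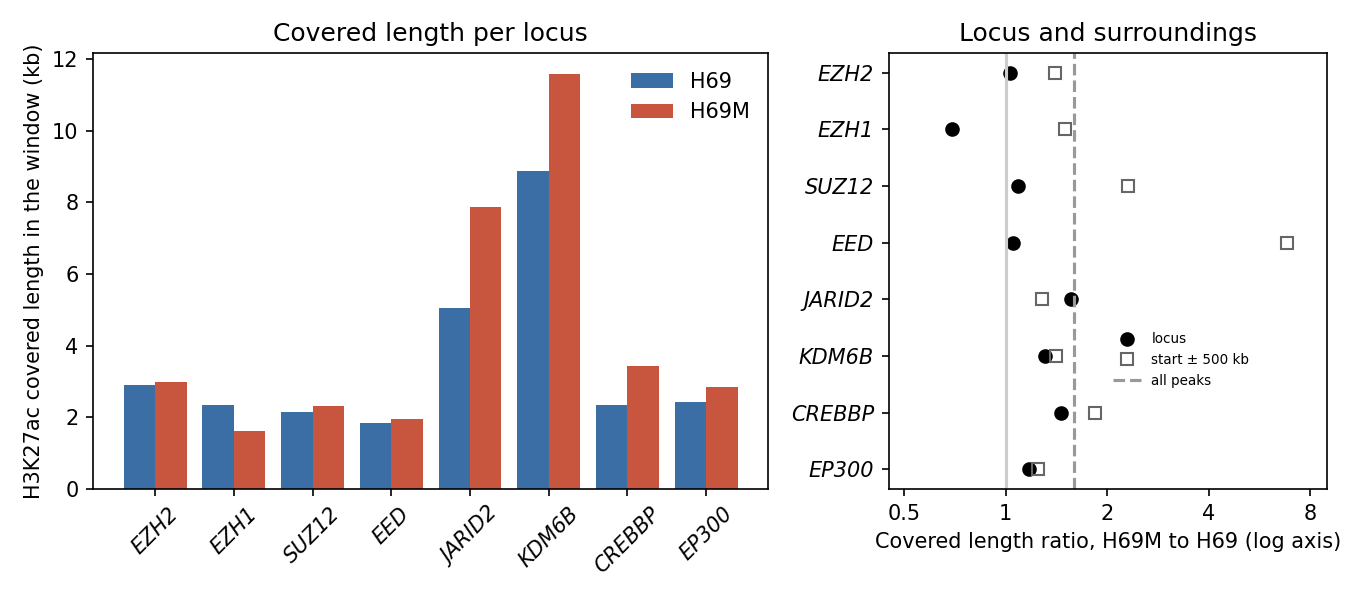
Left, H3K27ac covered length in kb at each locus in H69 (blue) and H69M (red). Right, the H69M to H69 ratio of covered length on a log axis for each locus (filled) and for 500 kb on either side of its start (open), with the ratio of 1.59 over all peaks dashed. The locus ratios lie between 0.692 and 1.56 while the surroundings of EED reach 6.81.

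**Figure D3:**
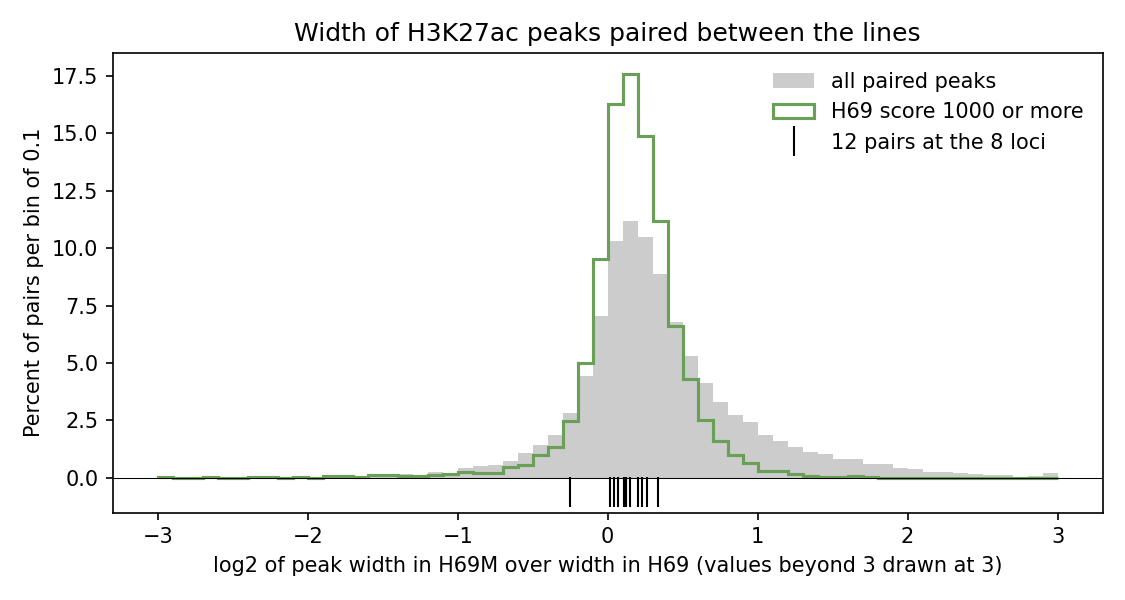
Distribution of the log2 width ratio of H3K27ac peaks paired between the lines, in percent of pairs per bin, for all 21822 pairs (grey) and the 7748 with an H69 score of 1000 or more (green). Ticks mark the 12 pairs at the 8 loci, which lie between -0.25 and 0.33.

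At 7 of the 8 genes, all except JARID2, the surroundings had a higher ratio than the locus with its 5 kb flank. How often this holds for other genes was not computed, so it is not shown to be particular to these. Against the span alone, whose ratio was 2.26 at CREBBP, CREBBP was an exception as well. Over 500 kb on either side of the gene start the ratio of H3K27ac covered length, H69M to H69, was 6.81 around EED, 2.31 around SUZ12, 1.84 around CREBBP, 1.5 around EZH1, 1.41 around KDM6B, 1.40 around EZH2, 1.28 around JARID2 and 1.25 around EP300. At least 2-fold was reached by 2 of 8 neighbourhoods, against 37.8% of the 2599 bins of 1 Mb with the mark in both lines. Of those bins 2.46% exceeded the value around EED, which is the highest of the 8 and rests on 9.55 kb in H69. The bins have fixed positions, whereas the neighbourhoods are centred on gene starts. These distances were chosen after the values at the loci were known.

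Around EED, H69 had 8 peaks over 9.55 kb and H69M had 52 peaks over 65.0 kb. Of the 8 H69 peaks 7 overlapped an H69M peak, and 45 H69M peaks had no H69 counterpart. All 45 lay outside the EED window, 14 upstream and 31 downstream, the nearest at 50.8 kb upstream and 211 kb downstream of the start. Of these, 5 scored 1000 or more. They were on chromosome 11 at 85883935 to 85886799 (score 1176.39), 86168979 to 86172816 (1861.38), 86183917 to 86186795 (2120.20), 86449809 to 86452823 (2122.05) and 86453015 to 86454884 (1349.92). The EED peak itself differed by 102 bp between the lines.

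Around SUZ12 there were 27 peaks over 36.0 kb for H69 and 35 peaks over 83.0 kb for H69M, and 14 H69M peaks had no H69 counterpart. The strongest, on chromosome 17 at 30637761 to 30644153, was 6393 bp wide with a score of 3100 and lay 374 kb downstream of the SUZ12 start. The H69M peaks around JARID2 and EP300 that H69 lacked had no score of 1000 or more, as around EZH2, KDM6B and CREBBP, whereas EZH1 had 3. H3K27me3 within the same 500 kb on either side numbered 18 peaks in H69 and 13 in H69M around EZH2, 10 and 6 around EZH1, 14 and 18 around SUZ12, 3 and 2 around EED, 7 and 16 around KDM6B and 7 and 3 around CREBBP. Around JARID2 and EP300 no H3K27me3 peak was listed in either line.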

How the data were processed

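Peak lists of 4 antibody libraries were analysed, 1 per mark and line, without the 2 input libraries. Bowtie2 and SAMtools 0.1.19 and the build hg19 are named in the submitters' processing notes. Peak names carry the word MACS, but which version, settings and control were used is not given in the sources used here. Each deposited peak has a start, an end and a score of the authors whose definition is not given. Scores start at about 50 and pile up at 3100, with some above it. They served to describe, rank and filter peaks, and no depth is known.

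Peaks on chromosomes 1 to 22 and X were used, with 1-based hg19 positions. The gene spans are those of the rule that chose the genes. RefSeq (GRCh38.p14) gave sequences, names and neighbours only, so no exon or intron was assigned, and other genes of the pathway and markers of the cell type were not placed. Peaks described singly were those at gene starts and the strongest ones without a counterpart, by a rule set with the test design. Here all peaks of the 8 loci are named, and those around them were chosen after their values were seen. The members and lists were chosen with earlier results of these data known. Sharing between the lines needed an overlap of at least 1 bp. Covered length was cut at the window edge. With 1 library per group no test between the lines was made. Overlap code (Python 3.11.15, pandas 2.3.3, numpy 2.4.6, scipy 1.17.1) was tested on simulated data. Alternatives were equal numbers of peaks, a score minimum of 100, other flanks (0 and 10 kb), an overlap of 50% and other windows at the start (500 and 2500 bp).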

Additional observations from a re-analysis of the deposited data

How the results depend on the processing

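Of 62 alternative values for H3K27ac, 55 kept their direction and stayed within 1.5-fold of the reported value or, for shares, within its 95% interval. Some of them could not change. The H69 list is the shorter one and had 0 peaks under a score of 100 at the loci. At EZH2, EZH1, SUZ12, EED and EP300 no peak scored under 219.67. Equal numbers of peaks and the score minimum therefore left the H69 counts and the ratios of these genes as they were. The 16 alternative values for H3K27me3 were all 0 and say nothing on stability, since fewer peaks or a shorter window cannot add any and the nearest peak lies beyond the 10 kb flank. With a score of 100 or more the number of H69M H3K27ac peaks was 13 (20 as reported) and the share of them that H69 peaks overlapped was 92.3% (12 of 13), and with equal numbers of peaks (38255 in each list) that share was 85.7% (12 of 14). With no flank the share of H69 peaks overlapped in H69M was 100% (10 of 10), the covered length ratio of CREBBP was 2.26 (1.46 as reported) and that of JARID2 1.76 (1.56 as reported), while that of EZH1 turned to 1.11, since its upstream peak falls outside the span. With 10 kb on either side the ratio of SUZ12 turned to 0.986, because of a peak 69641 bp after the start that was 1876 bp wide in H69 and 1636 bp in H69M, and that of EZH1 was 0.505. The ratio over the 8 loci ranged from 1.10 (score of 100 or more) to 1.42 (no flank). Over all peaks it was 1.64 with a score of 100 or more. With equal numbers of peaks it was 1.12 over the 8 loci and 1.42 over all peaks. The flank does not alter the ratio of 1.59 over all peaks. The share of H3K27me3 peaks overlapped by the other line could not be computed, since the loci had none. No paired analysis was possible because each group has 1 library and no test was made. Unknown depth limits every comparison of the lines, and regions below the callers' threshold are not seen.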
